A study of Mus musculus with 19 samples.

Results

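The 10 genes described here encode the subunits of the transcription factor NF-kappaB and a set of its inhibitors. They were chosen by symbol from the 27299 genes of the expression table, with 5 genes for the subunits (*Nfkb1*, *Nfkb2*, *Rela*, *Relb* and *Rel*) and 5 for the IkappaB family and A20 (*Nfkbia*, *Nfkbie*, *Nfkbiz*, *Bcl3* and *Tnfaip3*). All 10 had reads in every sample. RNA was sequenced from sorted retinal microglia, the resident macrophages of the retina, of mice aged 8 weeks. A group of 6 samples was taken on day 3 after 6 argon laser burns per eye, which break the membrane under the retina and start choroidal neovascularization (CNV d3), and the other group of 6 samples came from unlasered mice (control). Only the central retina, which holds the lesions, was used in both groups. The labels give the strain as C57BL/6J and the gate as CD45+CD11b+CX3CR1+Ly6C-Ly6G-, whereas the methods of the study name *Cx3cr1*GFP/+ mice, which carry a green fluorescent protein in place of 1 *Cx3cr1* copy in both groups, and a gate for low CD45. Nothing says whether a sample was 1 animal or a pool, so that p-values measure the spread between these samples, which may in part be technical.

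NF-kappaB factors are dimers of the subunit proteins. In resting cells IkappaB proteins hold these dimers in the cytoplasm, and signals from Toll-like, interleukin-1 and tumor necrosis factor receptors activate a kinase complex that marks IkappaB for degradation. The freed dimers enter the nucleus and induce inflammatory genes, among them those of their own inhibitors, so that *Nfkbia* and *Tnfaip3* transcripts are commonly used as a readout of recent activity. In microglia the pathway is known for the response to microbial products and tissue damage.

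The promoter sequences of 3 members are shown because they hold the binding consensus through which NF-kappaB is known to act on its own inhibitors and subunits. Each run gives the 250 bases before an annotated start, 5′ to 3′ on the strand of the gene, from RefSeq on GRCm38.p6, and capitals mark every match to the 10-base NF-kappaB consensus on either strand, with overlapping matches joined.
*Nfkbia*, chr12:55492648-55492897, minus strand: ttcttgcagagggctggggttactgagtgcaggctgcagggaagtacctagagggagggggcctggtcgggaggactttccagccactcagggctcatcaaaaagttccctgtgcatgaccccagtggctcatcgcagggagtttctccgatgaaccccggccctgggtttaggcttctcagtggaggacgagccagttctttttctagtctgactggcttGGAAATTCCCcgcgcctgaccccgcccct
*Nfkbie*, chr17:45555450-45555699, plus strand: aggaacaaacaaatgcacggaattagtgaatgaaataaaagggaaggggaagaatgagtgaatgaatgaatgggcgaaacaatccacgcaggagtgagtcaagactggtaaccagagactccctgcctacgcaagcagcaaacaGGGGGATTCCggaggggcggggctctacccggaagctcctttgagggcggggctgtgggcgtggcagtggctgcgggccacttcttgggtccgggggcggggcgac
*Rel*, chr11:23770970-23771219, minus strand: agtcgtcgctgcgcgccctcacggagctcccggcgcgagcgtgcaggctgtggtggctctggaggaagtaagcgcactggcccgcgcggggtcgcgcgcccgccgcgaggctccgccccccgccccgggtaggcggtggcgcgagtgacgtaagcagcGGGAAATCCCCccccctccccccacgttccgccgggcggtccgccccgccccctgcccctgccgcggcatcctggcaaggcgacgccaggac
The *Nfkbia* window held 1 match, GGAAATTCCC, which lay 29 to 20 bases before the start. The *Nfkbie* window held GGGGGATTCC, 106 to 97 bases before the start. In *Rel* the matches GGGAAATCCC and GGAAATCCCC overlapped, 92 to 82 bases before the start. Of the 7 members in the promoter table, 5 had a match in at least 1 window, namely these 3, *Nfkb2* and *Tnfaip3*, and the windows of *Rela* and *Bcl3* had none. Promoters of *Nfkb1*, *Relb* and *Nfkbiz* were not analysed here. By window, 7 of the 10 windows of these members held a match, against 7.25% of all 32817 windows of the same length, and by gene 5 of 7, against 8.23% of 26994 genes. Such a match describes the letters of the window and does not show binding. Members with a match were found among those that were lower in CNV d3 (*Nfkbia*, *Nfkbie*) and among those that were not called (*Rel*, *Nfkb2*, *Tnfaip3*).

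The expression values were reads per gene divided by a size factor of each sample, termed normalized counts. Between 10963178 (control 6) and 22335233 reads per control sample and between 23532260 and 29523018 per CNV d3 sample were assigned to genes, and 1 read was worth 0.739 to 1.99 normalized counts. The members rested on 116 to 5834 reads per sample, and any pair of samples of a group differed by more than counting noise. The labels list all 6 control samples but only sample 4 of the CNV d3 samples in 2 parts. The methods of the study describe a merge of 2 flow cell runs for every sample, so that the listing may not mean that the other CNV d3 samples were run differently, and any such difference cannot be told apart from the group. In bulk RNA, fewer cells of a type and less RNA per cell cannot be told apart.

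To ask how the pathway's own genes differed between CNV d3 and control microglia, log2 fold changes (log2FC, CNV d3 minus control, of normalized counts plus 1) were fitted with limma over all genes, and a gene was called at a Benjamini-Hochberg adjusted p (padj) under 0.05. *Nfkbia*, *Nfkbie*, *Nfkb1* and *Rela* were lower and *Nfkbiz* was higher in CNV d3, and the other 5 members were not called. The differences were moderate, from 45.6% lower for *Nfkbia* to 1.68-fold higher for *Nfkbiz*. No member was a differentially expressed gene (DEG) by the definition of the study, an absolute log2FC above 1.5 at padj under 0.05, and this was so in all 21 fits, of which 20 used other settings or samples. Across all genes 12.9% were called, 8.29% higher and 4.57% lower, and 4.99% were DEG. Among the 7302 genes expressed at least as highly as the lowest member, 12.1% were called lower and 17.4% higher. The median log2FC was -0.40 over the 10 members, against 0.15 over all genes and 0.06 over those 7302 genes. The CNV d3 and control values did not overlap for 2 members, both lower, where 2.83% of all genes separated in this direction and 4.64% in the other.

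*Nfkb1* (chr3:135584655-135691547, minus strand) encodes p105, the precursor of the p50 subunit. The control samples lay between 3245 and 4288 normalized counts (median 3538) and the CNV d3 samples between 1858 and 2632 (median 2266). Every CNV d3 sample was below every control sample, with sample 3 the lowest. The mean fell from 3609 ± 403 to 2285 ± 264 (SD, n = 6 each), by 36.7% (log2FC = -0.66, SE 0.10, padj = 0.000703), and it was called in each of the 21 fits. *Rela* (chr19:5637483-5648130, plus strand) encodes p65, the subunit that carries the activation domain of the classical p50 and p65 dimer. Control samples held 3656 to 5879.8 normalized counts (median 4499.7) and CNV d3 samples 2775 to 4310.0 (median 3150.4). Samples 2 to 6 of CNV d3 were below every control sample, and sample 1, at 4310.0, lay within the control range. The mean was 4703 ± 842 in control and 3252 ± 557 in CNV d3 (SD, n = 6 each), a fall of 30.7% (log2FC = -0.53, SE 0.13, padj = 0.0152). *Rela* was no longer called when CNV d3 sample 3, 5 or 6 was left out, with padj up to 0.0528 and a log2FC of -0.512 to -0.486.

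*Rel* (chr11:23736847-23770970, minus strand), which encodes c-Rel, a subunit of immune cells, varied more among the controls. Its control values ranged from 1701 to 3625 (median 2273) and its CNV d3 values from 1495 to 2088 (median 1739.9), and all 6 CNV d3 samples were below the control median, 2 of them below every control. The log2FC of -0.45 (95% interval -0.82 to -0.08) had padj = 0.107, which covers 0.566 to 0.944 times the control level, and DESeq2 alone called it (padj = 0.0316). The subunits of the alternative pathway overlapped widely between the groups. *Nfkb2* (chr19:46304320-46312385, plus strand) encodes p100, the precursor of p52, and held 493 to 899 normalized counts in control (median 633) and 670 to 913 in CNV d3 (median 745). Its log2FC was 0.23 (95% interval -0.13 to 0.58, padj = 0.438), or 0.917 to 1.496 times the control level. Antisense genes (*Psd* and *AC114539.1*) overlap 18.1% of its exon bases. Reads were counted without strand, so that a read in this stretch cannot be assigned to a single gene. Such reads may be missing from the *Nfkb2* count, and from its level per kb and share below. *Relb* (chr7:19606217-19629438, minus strand), the partner of p52, held 405 to 983 normalized counts in control (median 807) and 533 to 875 in CNV d3 (median 740). Its log2FC was -0.04 (95% interval -0.46 to 0.39, padj = 0.918), or 0.725 to 1.31 times the control level, and its sign changed when control 2, control 6 or CNV d3 sample 5 was left out.

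*Nfkbia* (chr12:55489410-55492647, minus strand) encodes IkappaB-alpha, the main cytoplasmic inhibitor and a direct NF-kappaB target. Control samples ranged from 3738 to 4762 normalized counts (median 4188) and CNV d3 samples from 1879.9 to 3197 (median 2265). All 6 CNV d3 samples were below all 6 controls, and sample 1 was nearest to them. The mean fell from 4264 ± 422 to 2346 ± 483 (SD, n = 6 each), by 45.6% (log2FC = -0.88, SE 0.13, padj = 0.000356), and it too was called in each of the 21 fits. *Nfkbie* (chr17:45555703-45563169, plus strand) encodes IkappaB-epsilon, a related inhibitor. Its values were 792 to 1725 in control (median 1145) and 633 to 803 in CNV d3 (median 712). Only sample 1 of CNV d3 (803) was above a control, the lowest one (control 2, 792), and the CNV d3 samples were much more alike (SD 67.9 around a mean of 706, n = 6) than the controls (SD 325 around 1177, n = 6). *Nfkbie* was 38.3% lower in CNV d3 (log2FC = -0.70, SE 0.17, padj = 0.0123). 

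The nuclear IkappaB members *Nfkbiz* and *Bcl3* had higher means in CNV d3, and *Nfkbiz* was called. *Nfkbiz* (chr16:55811375-55838899, minus strand) encodes IkappaB-zeta, a nuclear cofactor of NF-kappaB at secondary response genes. Control values lay between 251 and 449 (median 377) and CNV d3 values between 406 and 763 (median 608). Samples 2 to 6 of CNV d3 were above every control, and sample 1 (406) was within the control range. The mean was 364 ± 85.7 in control and 612 ± 131 in CNV d3 (SD, n = 6 each), with a log2FC of 0.75 (SE 0.20, padj = 0.0229). Without CNV d3 sample 3, 4 or 6, *Nfkbiz* was not called (padj up to 0.0572, log2FC at least 0.68). *Bcl3* (chr7:19808462-19822770, minus strand), whose product binds p50 and p52 homodimers in the nucleus, held 216 to 364 normalized counts in control (median 249) and 304 to 654 in CNV d3 (median 369). Control 4 (364) was the only control above the lowest CNV d3 sample, and sample 3 of CNV d3 (654) stood above the rest. The log2FC of 0.65 (95% interval 0.20 to 1.09) had padj = 0.0567 and was not called. Without control 4 or without CNV d3 sample 5 *Bcl3* passed the threshold (padj down to 0.0242), as it did in DESeq2 (padj = 0.00862). An antisense gene, *Gm16175*, overlaps 6.51% of its exon bases. *Tnfaip3* (chr10:19000910-19015657, minus strand) encodes A20, a ubiquitin-editing enzyme that shuts off signaling to the kinase complex. It held 1251 to 2717 normalized counts in control (median 1849) and 1082 to 1839 in CNV d3 (median 1503), and all 6 CNV d3 samples were below the control median. Its log2FC of -0.34 (95% interval -0.71 to 0.03) had padj = 0.246.

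**Figure D1:**
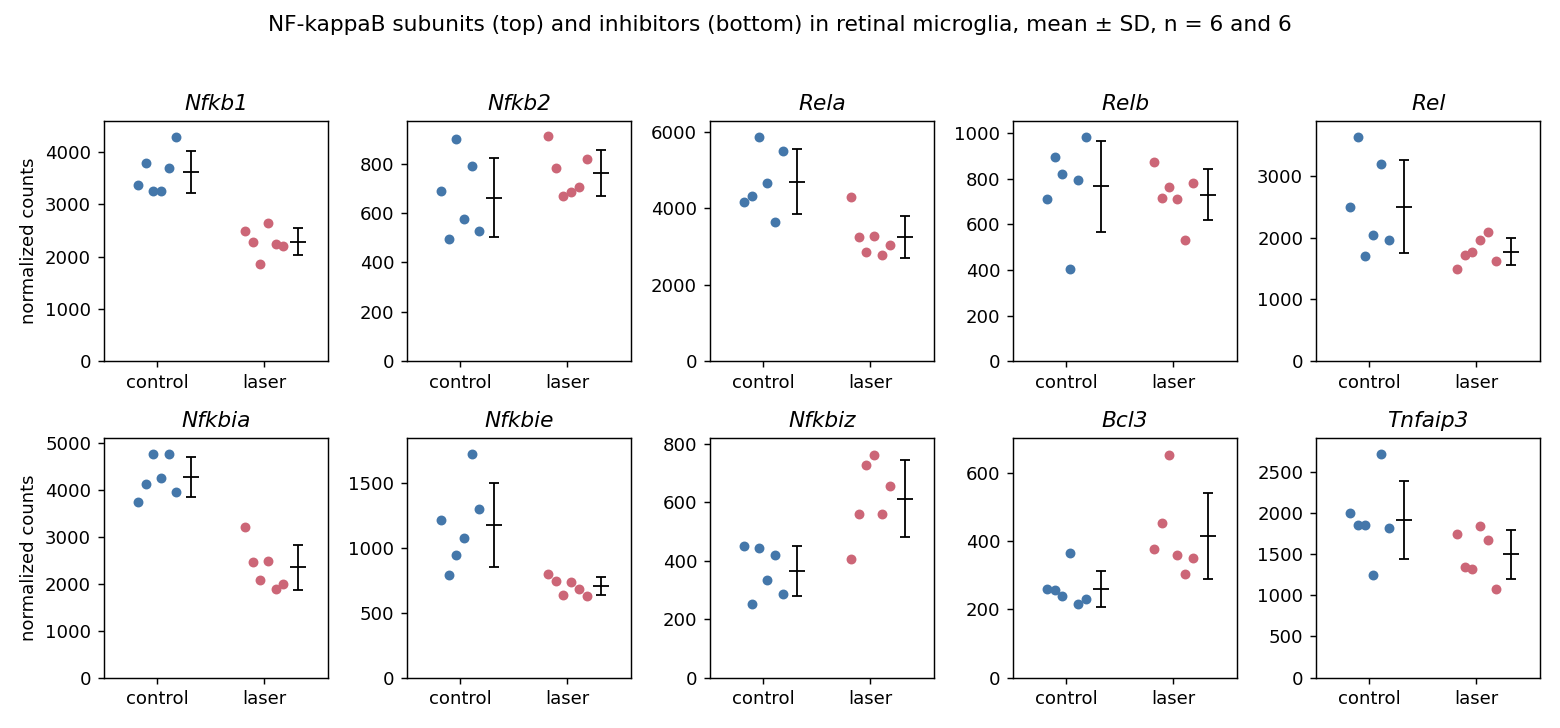
Normalized counts of the 10 members in each control and CNV d3 (laser) sample, 1 point per sample, with the mean and SD of each group (n = 6 each). For *Nfkb1* and *Nfkbia* the groups do not overlap, and *Nfkbiz* is the member whose CNV d3 samples lie mostly above the controls (5 of 6).

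**Figure D2:**
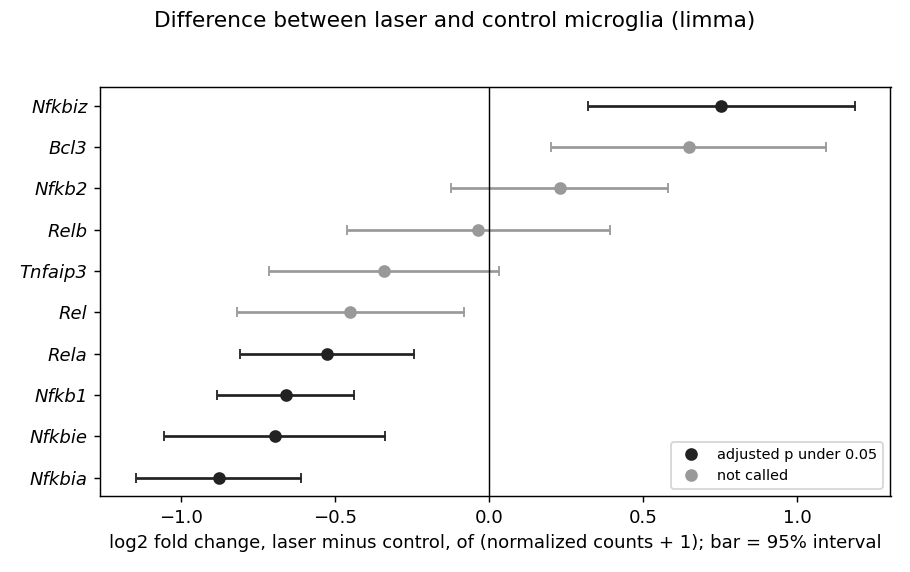
Log2 fold change of each member (CNV d3 minus control, of normalized counts plus 1), with the 95% interval from limma, ordered from highest to lowest; black marks padj under 0.05. The values run from -0.88 for *Nfkbia* to 0.75 for *Nfkbiz*.

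Levels were compared between members per kilobase of exon, with all annotated exons of a gene merged. This length can exceed that of the transcript present (*Nfkb1* 12061 bases), so that the order and the shares below depend on the annotation. *Nfkbia* had the highest value per kb in both groups, at 2648 normalized counts per kb in control and 1457 in CNV d3, followed by *Rela* at 1531 and 1059. Without division by length, mean counts of *Rela* (4703 and 3252) were above those of *Nfkbia* (4264 and 2346) in both groups. *Nfkbia* was above *Rela*, and *Rela* above the next member, in 6 of 6 samples of each group. In control *Nfkbie* (386), *Rel* (335), *Nfkb1* (299), *Tnfaip3* (265), *Relb* (198), *Nfkb2* (145), *Bcl3* (106) and *Nfkbiz* (72.5) followed, and among these neighbours only *Bcl3* was above *Nfkbiz* in all 6 samples. In CNV d3 the order was *Rel* (238), *Nfkbie* (232), *Tnfaip3* (207), *Nfkb1* (189), *Relb* (188), *Bcl3* (168), *Nfkb2* (166) and *Nfkbiz* (122), and no neighbour in this run was above the next in all 6 samples. The lower 8 members thus lay between 72.5 and 386 normalized counts per kb in control and between 122 and 238 in CNV d3.

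The sum of the 5 subunits per kb was 2292 to 2818 in control and 1661 to 2233 in CNV d3, without overlap. Within this sum *Nfkb2* made up 4.13% to 7.50% in control and 7.94% to 10.1% in CNV d3, again without overlap, although the level of *Nfkb2* itself was not called. *Relb* took 4.55% to 9.11% in control and 8.27% to 11.8% in CNV d3. The shares of *Nfkb1* (9.55% to 13.3% against 9.21% to 11.6%), *Rela* (51.7% to 67.9% against 54.4% to 62.8%) and *Rel* (8.09% to 19.0% against 8.96% to 16.8%) overlapped. Ratios within a sample do not depend on the size factors. The ratio of *Nfkbiz* to *Nfkbia* counts was 0.0608 to 0.120 in control and 0.127 to 0.351 in CNV d3, and that of *Bcl3* to *Nfkbia* 0.0453 to 0.0858 against 0.118 to 0.316, both without overlap. The ratio of *Nfkbia* to *Rela* was 0.716 to 1.30 in control and 0.657 to 0.756 in CNV d3, which overlapped. These shares and ratios restate the levels above and were given no test of their own.

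**Figure D3:**
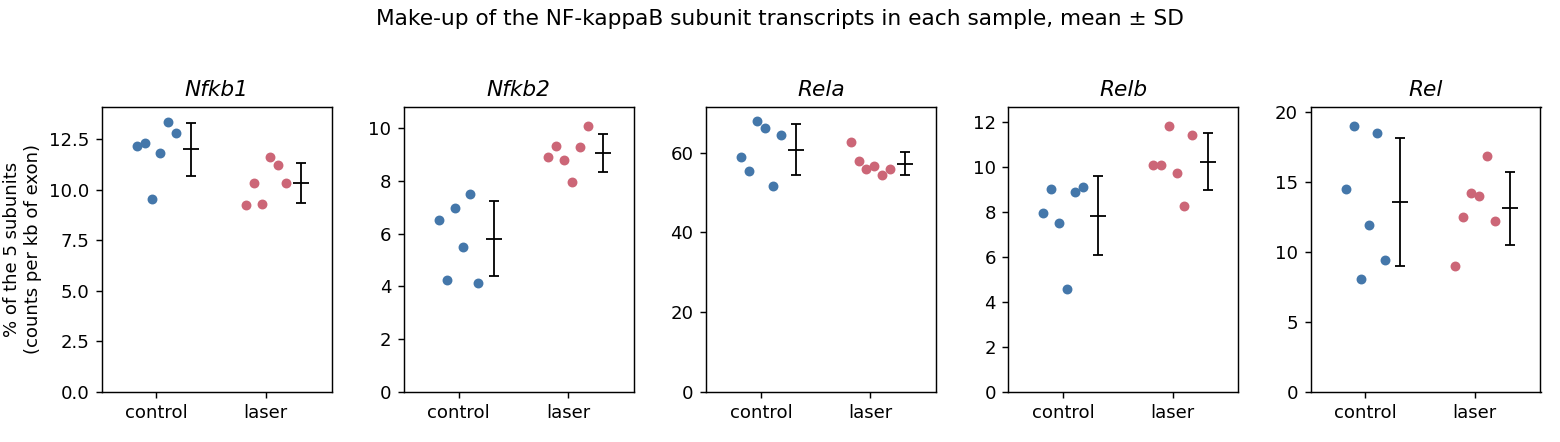
Share of each subunit in the summed transcripts of the 5 subunits, in % of normalized counts per kb of exon, 1 point per sample, with mean and SD (n = 6 each). The *Nfkb2* shares of the CNV d3 (laser) samples, 7.94% to 10.1%, all lie above those of the controls, 4.13% to 7.50%.

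Within the groups the members did not vary as a block. Over the 12 samples, after each group was centred on its mean, the 45 pairs of members had a median Pearson r of 0.09, and 25 were above 0. The highest values were 0.58 for *Rela* and *Nfkbia*, 0.55 for *Nfkbie* and *Tnfaip3* and 0.51 for *Nfkb2* and *Nfkbia*, and the lowest was -0.74 for *Rela* and *Rel*. These samples share their size factors across genes, and the values are given as a description. The 5 genes most like *Nfkbia* by this measure, of 9712 genes with a mean of at least 100 normalized counts, were *Agpat2* (r = 0.94), *Adrb1* (0.93), *Aamp* (0.92), *Slc46a1* (0.90) and *Cd81* (0.89). Among the other members *Rela* ranked highest in likeness to *Nfkbia*, at place 360, followed by *Nfkb2* at place 603.

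Genes that act upstream of the subunits were called in both directions, and most were not called. Of 37 receptors and adaptors, 6 were lower and 3 higher (median log2FC -0.02). The co-receptor *Cd14* fell from 19517 ± 778 to 11534.5 ± 2820.1 normalized counts (SD, n = 6 each; log2FC = -0.79, SE 0.13, padj = 0.00111) without overlap, and *Ly96*, the MD-2 part of the Toll-like receptor 4 complex, from 1367 ± 261 to 713 ± 135 (SD, n = 6 each; log2FC = -0.93, SE 0.16, padj = 0.00133). *Tlr4* itself, singled out after its values were seen, was also lower (log2FC = -0.59, SE 0.11, padj = 0.00193) and its groups did not overlap. *Irak2*, an interleukin-1 receptor-associated kinase, was lower without overlap (log2FC = -0.72, SE 0.12, padj = 0.000940), as was, with overlap, the receptor subunit *Il1rap* (log2FC = -0.70, SE 0.19, padj = 0.0254). *Irak1*, named after its values were seen, was higher (log2FC = 0.62, SE 0.14, padj = 0.00750). The most abundant receptors not called were *Tlr2* (log2FC = 0.23, SE 0.08, padj = 0.0731) and *Tnfrsf1b* (log2FC = -0.14, SE 0.07, padj = 0.249).

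Of 10 kinases and their scaffolds, 2 were higher and none lower (median 0.16). *Map3k7*, which encodes TAK1, the kinase that activates the IkappaB kinases, rose from 866 ± 316 to 1444 ± 120.4 (SD, n = 6 each; log2FC = 0.81, SE 0.20, padj = 0.0154), with every CNV d3 sample above every control. *Ikbke*, the other kinase called and singled out after its values were seen, had no read in 5 of 6 controls (mean 5.37 normalized counts) and 44.1 to 267 normalized counts in CNV d3 (log2FC = 5.79, SE 0.95, padj = 0.000982). The catalytic subunit *Ikbkb* was not called (log2FC = 0.04, SE 0.10, padj = 0.818), nor was *Tbk1* (log2FC = -0.01, SE 0.11, padj = 0.945). In the ubiquitin machinery, 2 of 11 genes were higher, *Ube2n* (log2FC = 0.48, SE 0.13, padj = 0.0251) and *Rbck1* (log2FC = 0.42, SE 0.12, padj = 0.0361), and 1 was lower, the ubiquitin ligase *Birc3*, itself a target (log2FC = -0.46, SE 0.11, padj = 0.0150). The abundant *Fbxw11* and *Cul1*, parts of ligases that mark IkappaB, were not called (log2FC 0.10 and -0.07, padj = 0.634 and 0.663).

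Among 22 genes listed as other inhibitors, 2 were lower, 2 higher and 18 not called (median 0.08). A place in this list does not show that a gene inhibits the pathway in microglia, and *Sharpin* stands in the ubiquitin list too. *Peli1*, a ubiquitin ligase of Toll-like receptor signaling, fell from 7421 ± 1538 to 3849 ± 686 (SD, n = 6 each; log2FC = -0.94, SE 0.15, padj = 0.000708), and *Tnfaip8l2*, a dampener of Toll-like receptor signaling, fell as well (log2FC = -0.46, SE 0.10, padj = 0.00479), both without overlap. Both genes called higher, *Tnip3* and *Nlrc3*, named after their values were seen, were low, at mean levels of 71.2 and 89.3 normalized counts in CNV d3. *Itch* and *Tax1bp1*, partners of A20, were not called (log2FC -0.21 and 0.02, padj = 0.305 and 0.946).

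Among 35 known targets 9 were higher, 4 lower and 22 not called, with a median log2FC of 0.59. The number higher fell to 4 or 5 without control 2, control 6 or CNV d3 sample 1, 2, 3 or 5, to 2 without CNV d3 sample 6 and to 2 without samples 3 and 6, while the number lower was 3 or 4 throughout. *Il6*, an inflammatory cytokine, fell from 227 ± 41.8 to 34.2 ± 24.1 normalized counts (SD, n = 6 each; log2FC = -3.07, SE 0.52, padj = 0.00116), and each CNV d3 sample (5.85 to 64.4) was below each control (172 to 288). The chemokine *Ccl2* rose from 533 ± 393 to 2957 ± 1634 (SD, n = 6 each; log2FC = 2.64, SE 0.43, padj = 0.000934), also without overlap. *Slc2a6*, a lysosomal sugar transporter of the glucose transporter family, rose from 1506 ± 282 to 4657 ± 1223 (SD, n = 6 each; log2FC = 1.61, SE 0.18, padj = 4.96e-05), again without overlap. The chemokine receptor *Ccr7*, a dendritic cell marker too, had no read in 4 of 6 controls and in 1 CNV d3 sample, and its log2FC was 6.89 (SE 1.57, padj = 0.00895). *Tnf* (147 to 346 normalized counts on average, log2FC = 1.35, SE 0.41, padj = 0.0402) and *Il1b* (224 to 483, log2FC = 1.47, SE 0.46, padj = 0.0496), both named after their values were seen, were higher with overlap. The targets *Icam1* (log2FC = -0.18, SE 0.11, padj = 0.340) and *Cd83* (log2FC = -0.06, SE 0.16, padj = 0.805), of high level, were not called. *Bcl2l1* (log2FC = -0.54, SE 0.12, padj = 0.00948) was lower without overlap and *Nlrp3* (log2FC = -0.69, SE 0.18, padj = 0.0211) with overlap, both named after their values were seen. With *Il6* and *Birc3* they made up the 4 targets called lower. Targets were thus called in both directions, and the *Il6* fall and the *Ccl2* rise were each larger than that of any member.

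Over all 111 measured genes of these 5 lists (of 113 listed), 17 were higher, 12 lower and 82 not called, or 26.1% called, against the 12.9% of all genes and the 29.5% of the genes as highly expressed as the members. The number called higher fell to between 9 and 11 without control 2, control 6 or CNV d3 sample 2, 3, 5 or 6. Across all genes 1737 to 2067 were called higher in those fits, against 2264 with all samples. The number of DEG among them, 10, fell to 6 without CNV d3 sample 6.

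**Figure D4:**
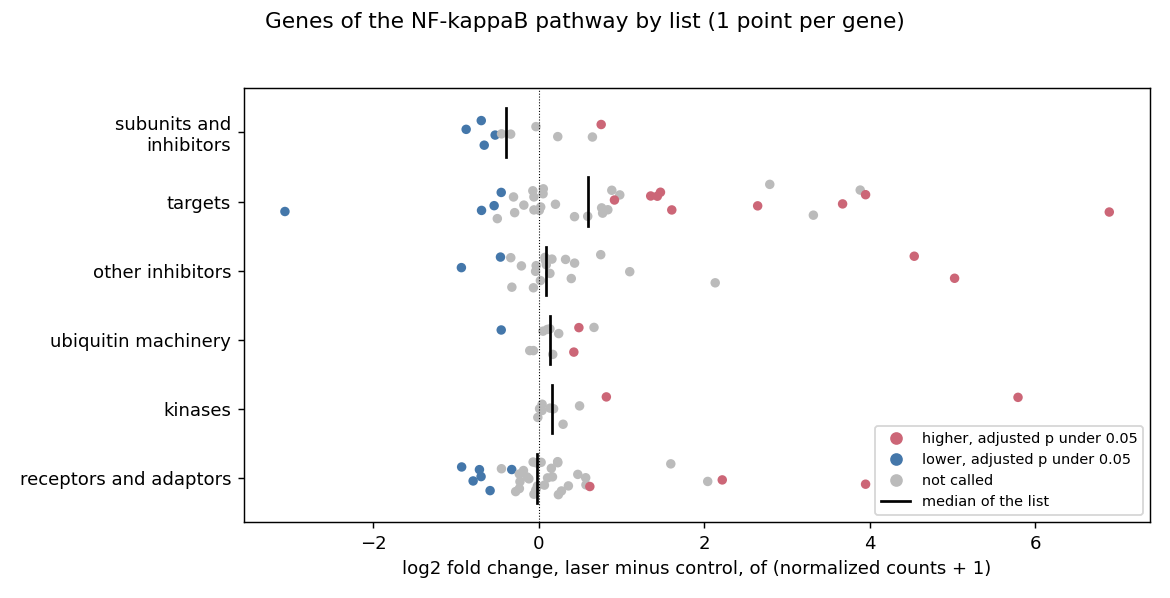
Log2 fold change (CNV d3 minus control) of each measured gene, 1 point per gene, in the 10 members and in 5 lists of other pathway genes; red marks genes called higher, blue genes called lower and gray genes not called, and the black line is the median of a list. The medians lie at -0.40 for the members and 0.59 for the targets, and the lists overlap widely.

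Markers of the sorted cells and of other cell types also differed between the groups. The microglial markers *P2ry12*, *Tmem119* and *Cx3cr1* were abundant in both groups (*P2ry12* at means of 187891 and 61433 normalized counts), and 7 of 10 microglial markers were lower and none higher in CNV d3 (median log2FC -0.53), with sums of 1354510 to 1524980 normalized counts in control and 754090 to 1135280 in CNV d3. The falls of *Nfkbia*, *Nfkbie*, *Nfkb1* and *Rela* (log2FC -0.88 to -0.53) were at or beyond this median. They lay within the range of the microglial markers. *P2ry12* (log2FC -1.65), *Gpr34* (-1.15) and *Tmem119* (-1.06) fell further than any member, and the other markers ran from -0.84 (*Cx3cr1*) to -0.05 (*Olfml3*). Of 14 monocyte markers 7 were higher (sums of 582 to 1859 in control and 5790.5 to 54721 in CNV d3). *Fn1*, which encodes fibronectin and is not specific to monocytes, made up 80.8% of that sum in CNV d3, and without it the sums were 575 to 1853 in control and 2027 to 7331 in CNV d3. Other markers called higher were *Ms4a4c* (means of 411 in control and 1241 in CNV d3), *Itgal* (216 and 1037), *Ccr2* (34.2 and 664) and *Plac8* (89.9 and 639). None of the 14 was called lower, and 7 were not called. *Ly6c2*, called higher, and *Chil3*, not called (padj = 0.0833), had no read in any control. Their means were 12.9 and 4.95 normalized counts in CNV d3. Of 10 dendritic cell markers 6 were higher, with sums of 167 to 579 in control and 524 to 3207 in CNV d3 and *Cd209a* at 0 in every control. CNV d3 samples 1 and 4 had the lowest monocyte sums of their group, 5790.5 and 6564.9 (2027 and 2401 without *Fn1*, again the lowest), and in them *Nfkbia* (3197 and 2474.5) and *Nfkb1* (2482 and 2632) were below every control. These monocyte sums were themselves above every control sum, with and without *Fn1*. Sample 1, with the lowest of these sums and the highest microglial sum of its group, was also the CNV d3 sample that lay nearest the controls for *Rela*, *Nfkbia*, *Nfkbie* and *Nfkbiz*. Samples 3 and 6 had the highest monocyte sums, 54721 and 40053 (7331 and 6613 without *Fn1*, again the highest). With both left out, *Nfkbia* (log2FC = -0.79, padj = 0.0104) and *Nfkb1* (log2FC = -0.58, padj = 0.00592) were called, while *Rela* (log2FC = -0.47, padj = 0.132), *Nfkbie* (log2FC = -0.62, padj = 0.0960) and *Nfkbiz* (log2FC = 0.65, padj = 0.136) kept their direction but were not. The pathway genes called higher fell from 17 to 4, those called lower from 12 to 9 and the DEG among them from 10 to 3 in that fit, which holds 4 CNV d3 samples. Calls across all genes fell in that fit too, from 2264 to 1124 higher and from 1247 to 688 lower. The DEG across all genes fell from 1068 to 553 higher and from 293 to 176 lower. The part of these markers in the results was not tested beyond these values.

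Of 21 immediate early genes and genes induced by tissue dissociation, 2 were higher (*Fos* and *Fosb*) and 3 lower (*Ier5*, *Btg2* and *Klf6*), and their sums overlapped, at 31236 to 37118 normalized counts in control and 24788 to 34149.9 in CNV d3. Of 10 Mueller glia and astrocyte markers 4 were higher and 1 lower, with sums of 19666 to 41419 in control and 59517 to 102487 in CNV d3, of which *Apoe*, a gene that macrophages express too, made up 72.0% and 88.9%. Without *Apoe* the sums overlapped, at 6846 to 9909.0 and 8080.4 to 9163. Of the genes left, *Glul* had the highest means (5723 and 4734 normalized counts) and was not called. *Vim* (means of 175 and 2277), *Dkk3* (2.69 and 38.0) and *Clu* (21.8 and 80.8) were called higher, and *Slc1a3* (2117 and 1358) lower. Photoreceptor sums varied widely between samples, at 751 to 7011 in control and 596 to 12985 in CNV d3 (median log2FC 1.55). No photoreceptor, neutrophil, B and T cell or retinal pigment epithelium marker was called of 10, 7, 7 and 9 measured, and among 8 endothelial markers 1 was higher and 1 lower. Their part in the members' differences was not tested. CNV d3 sample 4, the 1 sample of its group listed in 2 parts like the controls, lay outside the control range for all 5 members called. This is 1 sample, and a difference between runs was not tested.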

How the data were processed

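RNA of sorted cells was amplified with a low-input kit and sequenced as single reads of 50 cycles. Per the labels and the methods of the study, the authors aligned reads to GRCm38.p6 with STAR (2.7.2b), merged the runs of a sample, counted reads per gene with featureCounts (1.6.4, default settings) and divided them by DESeq2 (1.22.2) size factors. The deposited values are therefore a signal, normalized counts, and 19 listed entries give 12 samples. Whole reads were recovered from the steps between values, within 0.001 reads. The authors' group means, fold changes and p-values stand in the same table and were not used.

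The members and all gene lists were chosen with earlier results of these data known. limma (3.58.1, R 4.3.3) with a variance trend was fitted to log2(value + 1) of all 27299 genes in 6 CNV d3 and 6 control samples with no covariate, two-sided, with Benjamini-Hochberg adjustment over all genes. Intervals are 95% confidence intervals. Fold changes are differences of mean log values. The added 1 shrinks those of low genes, but where samples of a group hold no read they can exceed the ratio of the means. *Ikbke* had means of 5.37 and 119 normalized counts at a log2FC of 5.79. *Il12b*, a target not called, had a log2FC of 3.88 although its mean fell from 73.8 to 58.9. The scripts were tested on simulated data. Alternatives were pseudocounts of 0.5 and 8, a filter (10 normalized counts in 6 samples), TMM scaling, edgeR (4.0.16) and DESeq2 (1.42.0) on the recovered reads, a replicate block and leaving out each sample. Leaving out CNV d3 samples 3 and 6 together was added after the data were seen.

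Named were all members, in each pathway list up to 4 called genes of largest change and up to 2 uncalled genes of highest mean, with a mean of at least 100 normalized counts, the 5 genes most like *Nfkbia*, and markers. The lists held receptors and adaptors, kinases, ubiquitin machinery, other inhibitors and targets, and markers of microglia and other cells and immediate early genes. Gene positions and exon lengths came from Gencode M21 on GRCm38, in which 27238 of 27299 identifiers matched. *Skp1*, *Nos2* and 9 cell type markers had no row by that symbol and were not used here. Promoter windows came from a RefSeq table.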

Additional observations from a re-analysis of the deposited data

Results flagged for a closer look

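In 20 sets of 6 samples (10 members in each group), the highest or lowest sample was tested against the gap expected in such a set. In 3 of them it stood apart by more than Dixon's 95% critical value for 6 samples, where chance alone gives about 1 in 20. *Rela* stood apart in CNV d3 sample 1, at 4310.0 normalized counts, with a gap of 0.6251 of the range of its group. *Relb* stood apart in control 4, at 405 normalized counts (gap 0.636 of the range), and *Bcl3* in the same control sample, at 364 normalized counts (gap 0.654). Without control 4, *Bcl3* was called higher in CNV d3, and without CNV d3 sample 1 *Rela* was still called lower.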

How the results depend on the processing

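Of the 10 members, 4 were called lower and 1 higher. Lower calls numbered 4 or 5 under other settings, 3 to 4 with any 1 sample left out (3 without CNV d3 sample 3, 5 or 6, when *Rela* was lost) and 2 with CNV d3 samples 3 and 6 left out. The number called higher was 2 with the filter on low values and in DESeq2, when *Bcl3* was added, 0 with those samples left out and 0 to 2 with any 1 left out. *Nfkbiz* was the member lost without CNV d3 sample 3, 4 or 6. No member was a DEG in any fit (0 to 0 with any 1 sample left out). The *Relb* log2FC, near 0, ran from -0.21 to 0.0515 when any 1 sample was left out. The pathway genes called higher numbered 17, with 9 to 20 when 1 sample was left out and 4 without samples 3 and 6, those called lower 12, with 9 to 12, and DEG 10, with 6 to 11 and 3. No pairing of samples by replicate number was seen. Same-numbered samples deviated together with r of -0.05 to 0.07, and 1 of 6 correlated best with its own number. A pairing masked by other differences between samples would not show in this check. With the number as a replicate block, 4 members were called lower and 0 higher (*Nfkbiz*, adjusted p = 0.0561). The causes were not tested. Across all genes, 2264 were higher and 1247 lower in limma, 1952 and 1181 in edgeR and 2493 and 2170 in DESeq2. Without CNV d3 samples 3 and 6, limma called 1124 higher and 688 lower. The median log2FC of all genes was 0.15 in limma and -0.01 in DESeq2, and the members' directions did not change with the scaling. Depth limits *Bcl3* and *Nfkbiz* most, at 116 and 144 reads in their shallowest samples.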
